A study of Mus musculus with 2 samples.

Results

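The genes described here are 8 growth factors, picked by name as ligands of the epidermal growth factor receptor (EGFR) and other factors that act on epithelium, vessels and stroma: *Ereg*, *Areg*, *Hbegf*, *Vegfa*, *Pdgfa*, *Pdgfb*, *Igf1* and *Hgf*. All 8 were found by symbol among the 32285 gene identifiers of the count tables. They were followed in mouse alveolar macrophages (AMs), the resident macrophages of the airspace, in 2 droplet libraries, 1 from AMs of vehicle-control mice (Control-AM) and 1 from AMs of mice that carried an orthotopic lung tumor (Tumor-AM). Both groups were C57BL/6 mice labelled as postnatal week 10, the study's methods describe adult females, and no transgene or deletion is given for either. In the tumor group, cells of the Lewis lung carcinoma line (LLC) had been injected into the left lung. Lungs were digested with collagenase and dispase at body temperature, and AMs were then collected as autofluorescent CD45+ cells positive for Siglec-F and F4/80. How many mice went into each library is not given in the sources used here. The study's methods also describe hashtag reads that assigned barcodes to samples, which were not used here, so every barcode was taken to be of the condition that labels its library. The questions were how much of each factor the libraries held, which cells carried it, and whether it was found in the cells that carried *Inhba*, the subunit of activin A that the study is about.

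As background, epiregulin (*Ereg*), amphiregulin (*Areg*) and HB-EGF (*Hbegf*) are made as membrane-bound precursors, are released by ADAM proteases and act through EGFR on epithelial cells. VEGF-A (*Vegfa*) acts on endothelium, the PDGF chains (*Pdgfa*, *Pdgfb*) act on fibroblasts and mural cells, and IGF-1 (*Igf1*) and HGF (*Hgf*) act on epithelium through IGF1R and MET. Macrophages are a known source of several of these factors during tissue repair and in tumors.

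Barcodes with at least 500 detected genes and at most 10% mitochondrial UMIs (unique molecular identifiers, 1 per counted molecule) were kept, which left 6185 control and 7666 tumor barcodes of 8485 and 9175. These held 64850143 and 68801889 UMIs, with a median of 10370 and 8264 per barcode, and 25 barcode sequences occurred in both libraries. All 12 AM markers examined were at 10 CPM or more in each library (CPM, UMIs of a gene per 1000000 UMIs of the same cells, summed over cells). Their summed level was 17511 CPM in the control and 15173 CPM in the tumor library, most of it from *Chil3*. Single markers differed by more, with *Marco* at 585 and 207 CPM, *Ear1* at 516 and 286 CPM and *Krt79* at 495 and 306 CPM, while *Pparg* was at 127 and 119 CPM. Of the 12, 3 were higher in tumor, *Siglec1* at 23.9 and 32.4 CPM, *Plet1* at 1347 and 1559 CPM and *Itgax* at 362 and 384 CPM. The 9 markers of monocyte-derived or interstitial macrophages summed to 18.1 and 111 CPM, and the part of such cells, or of the differences in AM markers, in the results below was not tested. With 1 library per condition, a difference between conditions cannot be told apart from one between libraries or mice. Cells are not replicates, so no test was run and no p-value is given. Levels carry exact 95% Poisson intervals, ratios exact conditional binomial intervals and shares of cells exact binomial intervals, all of which cover counting error only.

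Every one of the 8 factors had a higher level in the tumor library than in the control library, and 5 of them, *Vegfa*, *Pdgfa*, *Hbegf*, *Pdgfb* and *Hgf*, were at least 2-fold higher. Of the 13581 genes with at least 20 UMIs over both libraries, 6.02% were at least 2-fold higher in tumor. None of the 8 factors was 2-fold lower, beside 6.91% of those genes. On the log2 scale the factors' ratios had a median of 1.35, against -0.07 for all genes counted. *Inhba* itself was at 45.6 CPM in control and 148 CPM in tumor, 3.25-fold higher (3.12 to 3.38).

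**Figure D1:**
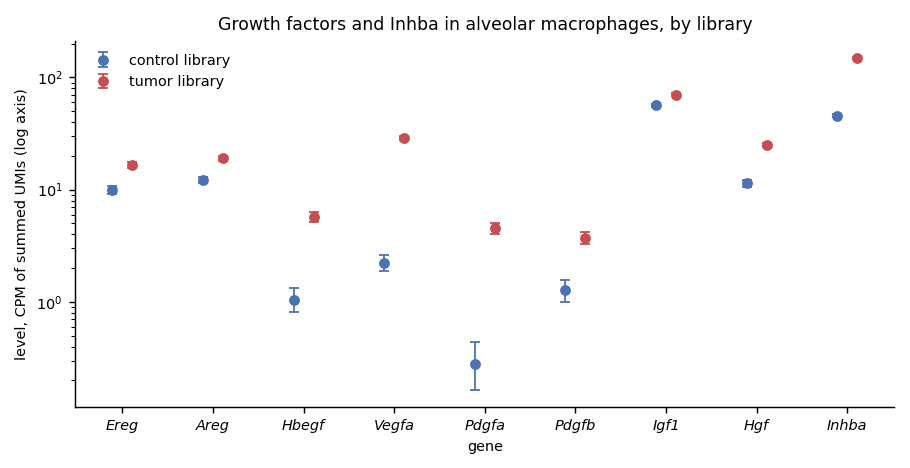
Level of the 8 growth factors and of *Inhba* in the control (blue) and tumor (red) libraries, in CPM of summed UMIs on a log axis, with exact 95% Poisson intervals. The tumor point lies above the control point for each gene, with the widest gap for *Pdgfa*, 0.278 against 4.52 CPM. Heights of different genes are not compared.

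Among the EGFR ligands, *Hbegf* differed most between the libraries. Its level was 1.049 CPM in control (68 UMIs, 0.814 to 1.33) and 5.73 CPM in tumor (394 UMIs, 5.18 to 6.32), 5.46-fold higher (4.21 to 7.17). *Ereg* was at 9.95 CPM in control (9.19 to 10.7) and 16.5 CPM in tumor (15.6 to 17.5), 1.66-fold higher (1.51 to 1.83). *Areg* was at 12.2 CPM in control (11.4 to 13.1) and 19.0 CPM in tumor (17.99 to 20.1), 1.56-fold higher (1.43 to 1.70). For none of the 3 did the intervals of the libraries meet, yet only *Hbegf* passed a 2-fold ratio.

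*Vegfa* and *Pdgfa* were the factors furthest apart between the libraries. *Vegfa* was at 2.24 CPM in control (145 UMIs, 1.89 to 2.63) and 29.0 CPM in tumor (1992 UMIs, 27.7 to 30.3), 12.9-fold higher (10.9 to 15.4). *Pdgfa*, the chain of the PDGF-AA homodimer, was at 0.278 CPM in control (18 UMIs, 0.165 to 0.439) and 4.52 CPM in tumor (311 UMIs, 4.03 to 5.05), 16.3-fold higher (10.1 to 27.8). Its control level rests on few molecules, hence the wide interval of the ratio. *Pdgfb*, the other chain, was at 1.26 CPM in control and 3.75 CPM in tumor, 2.97-fold higher (2.30 to 3.85).

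*Hgf* was at 11.5 CPM in control (10.6 to 12.3) and 25.0 CPM in tumor (23.8 to 26.2), 2.18-fold higher (2.002 to 2.38). *Igf1* was the least changed of the 8, at 56.4 CPM in control (54.5 to 58.2) and 70.4 CPM in tumor (68.4 to 72.4), 1.25-fold higher (1.20 to 1.30). Kits of this kind count the 3′ end of transcripts, and 4 of the genes overlap an antisense gene. Of these antisense genes, the one opposite *Pdgfa* (*6330403L08Rik*) had 1 UMI in control and 32 in tumor, *Igf1os* had 6 and 8, the one opposite *Ereg* (*Gm19610*) had 1 in each, and the one opposite *Pdgfb* (*Gm41361*) had 0 in both.

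To see how many cells carried each factor, every cell was thinned at random to 3800 UMIs, since deeper cells show more genes. That left 5590 control and 6937 tumor cells, without 595 and 729 shallower ones. *Vegfa* was found in 0.769% of cells in control (0.557 to 1.03) but in 7.18% in tumor (6.58 to 7.81), before thinning in 1.54% and 12.0%. *Pdgfa* was found in 4 control cells, 0.0716%, and in 91 tumor cells, 1.31% (1.06 to 1.61), and *Hbegf* in 0.268% and 1.48%. Each of these 3 factors was thus found in under 1% of control AMs at this depth. *Hgf* was found in 4.24% of control cells and 8.66% of tumor cells, and *Pdgfb* in 0.644% and 1.33%. *Ereg* went from 2.58% (2.18 to 3.03) to 3.49% (3.07 to 3.95), *Areg* from 3.02% (2.59 to 3.51) to 3.78% (3.34 to 4.25) and *Igf1* from 16.2% to 19.0%. Before thinning *Ereg* was at 5.17% and 5.36%, *Areg* at 6.00% and 6.82% and *Igf1* at 31.8% and 32.0%, so that for *Ereg* and *Igf1* the libraries nearly met. Cells with a UMI of at least 1 of the 8 factors made up 25.0% of the control and 37.7% of the tumor cells, and those with UMIs of 2 or more made up 2.52% and 7.61%. Free RNA in the droplets can give a UMI to a cell that does not make a factor. As a gauge of it, barcodes with markers of another cell type (84 control and 155 tumor barcodes at the same thinned depth, those with epithelial markers alone left out) were examined, although none of these types is sure to lack the factors. In tumor these held *Ereg* in 3.87% (1.43 to 8.23), *Areg* in 7.10%, *Vegfa* in 9.68% (5.52 to 15.5), *Pdgfa* in 2.58%, *Hbegf* in 1.94% and *Igf1* in 25.8%, no lower than the whole library. *Hgf* (5.81%) and *Pdgfb* (1.29%) were lower there than in the whole library, *Pdgfb* by little. Cluster S, described below and led by fibroblast genes, had 35 thinned tumor cells. It held *Ereg* in 0 of these (up to 10.0%) and *Igf1* in 14.3% (4.81 to 30.3), both under the whole library. The other factors were higher in it, and for all 8 the interval held the share of the whole library. Before thinning, 167 tumor barcodes with markers of another cell type held *Areg* at 41.6 CPM, *Pdgfa* at 16.2 CPM and *Igf1* at 103 CPM. Each is above its level in the whole library, as were *Hbegf* and *Vegfa*, while *Ereg*, *Pdgfb* and *Hgf* were below. Free RNA alone would not exceed the library it comes from, so these barcodes do not measure it. Some of them may also be AMs, since the lists hold genes found widely in the tumor library. There *S100a8* had 7120 UMIs and *Rora* 3386, but *S100a9* from the same list as *S100a8* had 3 and *Il5* from that of *Rora* had 0. How many of these barcodes are AMs was not tested. The part of free RNA was thus not tested, and the share of a library with a UMI is not read here as the share of AMs that make a factor. Between clusters of the same library, shares at equal depth differed beyond counting error, as given below, and the part of free RNA in this was not tested either.

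The molecules of *Ereg* and *Areg* were concentrated in few cells. In the tumor library the 1% of cells with most *Ereg* UMIs held 52.8% of them, with up to 24 in 1 cell, and for *Areg* that share was 47.5%, with up to 34. In the control library the shares were 50.4% and 49.8%. Cells with 3 or more UMIs held 68.8% of the *Ereg* and 64.1% of the *Areg* UMIs of the tumor library. *Hgf* was spread over more cells, with 1017 of its 1316 positive tumor cells holding a single UMI and 14.5% of its UMIs in cells with 3 or more. *Vegfa* lay between, with 58.1% of its tumor UMIs in cells with 3 or more and up to 22 in 1 cell.

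To learn which AMs made each factor, the 13851 cells were clustered without the 8 factors, *Inhba* and the pathway genes named below, so that none of these defined the clusters. The result was 19 clusters with 50 cells or more, given letters from A to S in order of size and described by their 3 leading genes. Clusters G (*Apoe*, *C1qb*, *Hpse*), K (*Vps37b*, *F13a1*, *Il1b*), M (*F13a1*, *Syngr1*, *Vps37b*), Q (*Irf7*, *F13a1*, *Marcks*) and R (*Hspa1b*, *F13a1*, *Ckb*) were tumor-enriched, meaning that at least 90% of their cells came from the tumor library after weighting for library size. They held 2081 tumor cells, 27.1% of that library, and 77 control cells, 1.24%. With 1 library per condition such clusters may be a trait of the library. All 12 AM markers were at 10 CPM or more in them too, summing to 12152 CPM, against 16446 CPM in the other clusters of the tumor library. Several were far lower in them, however, with *Marco* at 16.7 against 287 CPM, *Cidec* at 30.6 against 202 CPM, *Krt79* at 77.9 against 402 CPM and *Ear1* at 83.7 against 371 CPM, while *Itgax* was at 434 against 363 CPM. The 9 monocyte-derived or interstitial macrophage markers summed to 213 CPM in them and 68.5 CPM in the other clusters.

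The EGFR ligands split on this axis. In the tumor library *Ereg* had a level of 2.17 CPM in tumor-enriched clusters (1.57 to 2.91) and 22.6 CPM in the others (21.2 to 23.9), a log2 ratio of -3.38 (-3.85 to -2.95). *Areg* was at 4.38 CPM (3.52 to 5.39) and 25.2 CPM (23.8 to 26.6), a log2 ratio of -2.52, which became -1.48 and -1.84 at a coarser and a finer clustering. *Hbegf* went the other way, at 9.10 CPM (7.84 to 10.5) and 4.30 CPM (3.73 to 4.92), a log2 ratio of 1.08. Thus 3.87% of the tumor library's *Ereg* UMIs and 6.80% of its *Areg* UMIs, but 47.0% of its *Hbegf* UMIs, were in the tumor-enriched clusters. The low level of *Ereg* and *Areg* there depended on the correction between libraries made before clustering. Without it the tumor-enriched clusters took up 57.5% of the tumor library, and the log2 ratios were -0.13 for *Ereg* (-0.31 to 0.05) and -0.07 for *Areg* (-0.23 to 0.10).

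*Vegfa*, *Pdgfa* and *Hgf* were, with *Hbegf*, the 4 factors at least 2-fold higher in the tumor-enriched clusters, beside 2.67% of the 12492 genes counted there. *Ereg* and *Areg* were the 2 that were at least 2-fold lower, beside 8.77%. *Vegfa* reached 62.1 CPM in these clusters (58.7 to 65.6) and 15.04 CPM in the others (14.0 to 16.2), and 63.4% of its tumor UMIs were in them. *Pdgfa* was at 9.94 CPM (8.62 to 11.4) and 2.25 CPM (1.85 to 2.72), with 64.95% of its UMIs there. *Hgf* was at 39.5 CPM (36.8 to 42.3) and 18.8 CPM (17.6 to 20.1). *Igf1* was higher by less, at 92.2 and 61.3 CPM. *Pdgfb* hardly differed, at 3.74 CPM and 3.76 CPM (log2 ratio -0.01, interval -0.41 to 0.39), nor did *Inhba*, at 148 CPM in both (interval of the log2 ratio -0.06 to 0.06). Without the correction between libraries 4 factors were again 2-fold higher, with larger log2 ratios, 4.76 for *Pdgfa* in place of 2.14, 3.19 for *Vegfa* in place of 2.05 and 2.10 for *Hbegf* in place of 1.08.

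In shares of thinned cells the picture was the same. *Vegfa* was found in 15.2% of the cells of tumor-enriched clusters and 3.94% of the other tumor cells, *Pdgfa* in 3.05% and 0.609%, and *Hgf* in 14.6% and 6.21%. *Ereg* was found in 10 of 2002 cells of tumor-enriched clusters, 0.4995% (0.240 to 0.917), against 4.71% of the other tumor cells, and *Areg* in 0.799% against 4.996%.

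**Figure D2:**
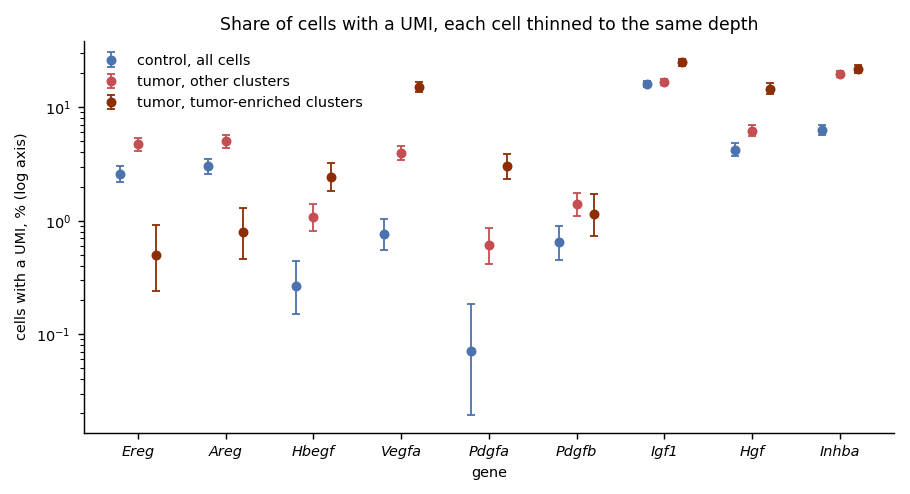
Share of cells with a UMI of each gene after thinning every cell to 3800 UMIs, in all control cells (blue), in the other clusters of the tumor library (red) and in its tumor-enriched clusters (brown), on a log axis with exact 95% binomial intervals. *Ereg* and *Areg* are lowest in the tumor-enriched clusters, 0.4995% and 0.799%, while *Vegfa* and *Pdgfa* are highest there, 15.2% and 3.05%.

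The libraries were also compared without the tumor-enriched clusters. In the other clusters alone, 6 of the 8 factors were at least 2-fold higher in tumor than in control, beside 5.28% of the 13368 genes counted, and none was 2-fold lower, beside 5.0%. The log2 ratios there were 1.18 for *Ereg* (1.04 to 1.32), 1.06 for *Areg* (0.93 to 1.19), 2.11 for *Hbegf*, 2.96 for *Vegfa* (2.68 to 3.25), 3.27 for *Pdgfa* and 1.68 for *Pdgfb*. *Hgf* was at 0.74 and *Igf1* at 0.14 (0.07 to 0.21). *Ereg* and *Areg* passed 2-fold there and *Hgf* did not. This too depended on the correction between libraries. Without it, 3 of the 8 were at least 2-fold higher in the other clusters, *Vegfa* at a log2 ratio of 1.43 (1.03 to 1.82), *Pdgfb* at 1.34 and *Hbegf* at 1.11, while *Ereg* was at 0.93, *Areg* at 0.88, *Pdgfa* at 0.16 (-1.502 to 1.63), *Igf1* at -0.016 and *Hgf* at -0.043. In the corrected clustering the other clusters still differed in mix, with tumor cells making up 86.0% of J and 72.5% of P after weighting for library size. The 13 clusters with at least 50 cells of each library were therefore also weighted by their size in control. The log2 ratio was then 2.51 for *Pdgfa*, 2.09 for *Vegfa*, 1.55 for *Pdgfb*, 1.42 for *Hbegf*, 0.92 for *Ereg*, 0.85 for *Areg*, 0.52 for *Hgf* and 0.05 for *Igf1*.

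Within these 13 clusters, *Vegfa* was higher in tumor in 12, with the interval of the ratio above 0 in 11, and *Ereg* in 11, with the interval above 0 in 9. *Pdgfb* and *Hbegf* were each higher in 12, with intervals above 0 in 5 and 4. *Areg* was higher in 10, with the interval above 0 in each of these, and lower in P (-0.98), J (-0.43, interval -1.004 to 0.19) and O (-0.83, interval -2.22 to 0.55). *Igf1* was higher in 7 and lower in 6, with the interval above 0 in 3 and below 0 in 4. *Hgf* and *Pdgfa* were each higher in 10, with intervals above 0 in 5 and 3, and several of the *Pdgfa* clusters rest on 3 UMIs or fewer in each library.

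Among clusters with at least 50 cells of a library, to which the following orders of levels are limited, *Ereg* and *Areg* had their highest level in the same cluster. Both peaked in cluster P (*Cxcl1*, *Cxcl3*, *Il1b*), 75 control and 245 tumor cells that express chemokines for neutrophils. *Ereg* was there at 75.3 CPM in control (59.0 to 94.7) and 98.0 CPM in tumor (86.9 to 110). *Areg* was there at 92.8 CPM in control (74.6 to 114) and 46.9 CPM in tumor (39.4 to 55.6). Of the other clusters, *Ereg* was next highest in B (*Cxcl2*, *Tnf*, *Cxcl3*), at 27.1 CPM in control and 36.0 CPM in tumor, and in tumor then in C (*Car4*, *Crip1*, *Cav1*), at 29.2 CPM, whose interval (25.1 to 33.8) overlaps that of B (31.3 to 41.3). *Areg* in tumor followed in E (*Cd74*, *H2-Aa*, *H2-Ab1*) at 33.1 CPM, C at 31.6 CPM and H (*Hspa1b*, *Hspa1a*, *Jun*) at 28.8 CPM, whose intervals overlap. *Hbegf* was highest in tumor in K at 10.8 CPM, G at 10.5 CPM, J at 9.38 CPM and P at 9.04 CPM, which did not differ beyond their intervals, and in control in J at 13.6 CPM on 11 UMIs. The 44 tumor cells of cluster S (*Dcn*, *Igfbp4*, *Col3a1*), too few to enter this order, stood above these at 42.2 CPM (22 UMIs, 26.5 to 64.0). Cluster J (*H2-Aa*, *Cd74*, *H2-Eb1*) had 80 control and 611 tumor cells.

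The genes of *Ereg* and *Areg* are neighbors. In GRCm38, the build of the files, *Ereg* lies at chr5:91074622-91093646 with 5 exons and *Areg* at chr5:91139599-91148432 with 6, both on the plus strand and 45.952 kb apart, between the EGFR ligand genes *Epgn* and *Btc*. The latter had 10 UMIs or fewer in the kept cells of each library. The promoter of *Areg*, here the 250 bases before its RefSeq start (GRCm38.p6, chr5:91139349-91139598, plus strand), is shown because the RefSeq table had an entry for it and its gene moved with *Ereg*. Capitals mark matches of 5 motifs searched on both strands: AP-1 site TGANTCA, cyclic AMP response element TGACGTCA, hypoxia response element core ACGTG or GCGTG, TATA box TATAAA and GC box GGGCGG. None of the matches shown overlap.
Areg: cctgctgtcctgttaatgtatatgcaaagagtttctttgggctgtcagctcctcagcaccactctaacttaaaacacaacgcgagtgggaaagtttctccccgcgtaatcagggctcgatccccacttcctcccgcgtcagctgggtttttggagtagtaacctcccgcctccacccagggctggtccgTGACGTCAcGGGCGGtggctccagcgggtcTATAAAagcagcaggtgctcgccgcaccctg

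The *Areg* promoter held 1 cyclic AMP response element, which begins 61 bases before the start, 1 GC box at 52 bases and 1 TATA box at 31 bases. Of 32851 RefSeq promoter windows of the same length, 1.55% held the cyclic AMP response element, 32.7% the GC box, 12.4% the TATA box, 6.75% the AP-1 site and 38.6% the hypoxia response element core. A match of letters is a description of the window and no evidence of binding.

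*Vegfa* was highest in the tumor-enriched clusters K, at 76.2 CPM in tumor, and G, at 70.9 CPM, whose intervals overlap, followed by J at 49.5 CPM and R at 45.5 CPM. Clusters Q and M were at 39.1 and 35.1 CPM, and P and F at 38.2 and 40.1 CPM. In control the highest level in a cluster of at least 50 cells was 17.4 CPM in J, on 14 UMIs. *Vegfa* was thus not confined to tumor-enriched clusters, and in cluster I (*Mmp12*, *Fstl1*, *Mfge8*) it was at 0.713 CPM in control and 14.4 CPM in tumor. Cluster F (*Gm26917*, *Neat1*, *Malat1*) is led by nuclear RNAs and had a median of only 2763 UMIs per cell and 6.75% mitochondrial UMIs.

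*Pdgfa* was highest in G, at 14.2 CPM in tumor (11.8 to 16.9), which held 40.5% of its tumor UMIs. It followed in K at 8.36 CPM and M at 6.35 CPM, whose intervals overlap, and then in I at 5.50 CPM and J at 5.33 CPM. In cluster A of the tumor library (747 cells) it had 1 UMI, and in B and D (720 and 403 cells) it had 0. *Pdgfb* was highest in tumor in R at 9.64 CPM on 7 UMIs, E at 8.61 CPM and J at 8.09 CPM, and in control in J at 9.92 CPM on 8 UMIs. The fibroblast-led cluster S, left out of this order with 44 tumor cells, was at 21.1 CPM for *Pdgfa* (11 UMIs, 10.5 to 37.8) and 11.5 CPM for *Pdgfb* (6 UMIs, 4.23 to 25.1), so that both chains had their highest tumor value in it. Among the larger clusters the chains differed in order, and E and J, which stand high for *Pdgfb*, are both led by MHC class II genes.

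*Hgf* was highest in tumor in R at 74.4 CPM (55.9 to 97.1), F at 54.1 CPM (41.4 to 69.3), K at 50.5 CPM (44.6 to 57.0) and J at 45.1 CPM (39.6 to 51.1), each overlapping the next in its interval, though R and J did not overlap. In control it was highest in J at 32.2 CPM and F at 21.8 CPM. *Igf1* was highest in control in J at 172 CPM (145 to 204), I at 123 CPM (112 to 134) and P at 102 CPM (83.0 to 124). In tumor its highest levels were 111 CPM in G (104 to 118), 103 CPM in N (*Cxcl9*, *Slc40a1*, *Isg15*) and 100.4 CPM in I. In J it was at 62.7 CPM in tumor, so the cluster with most *Igf1* in control was not among the first 4 in tumor.

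**Figure D3:**
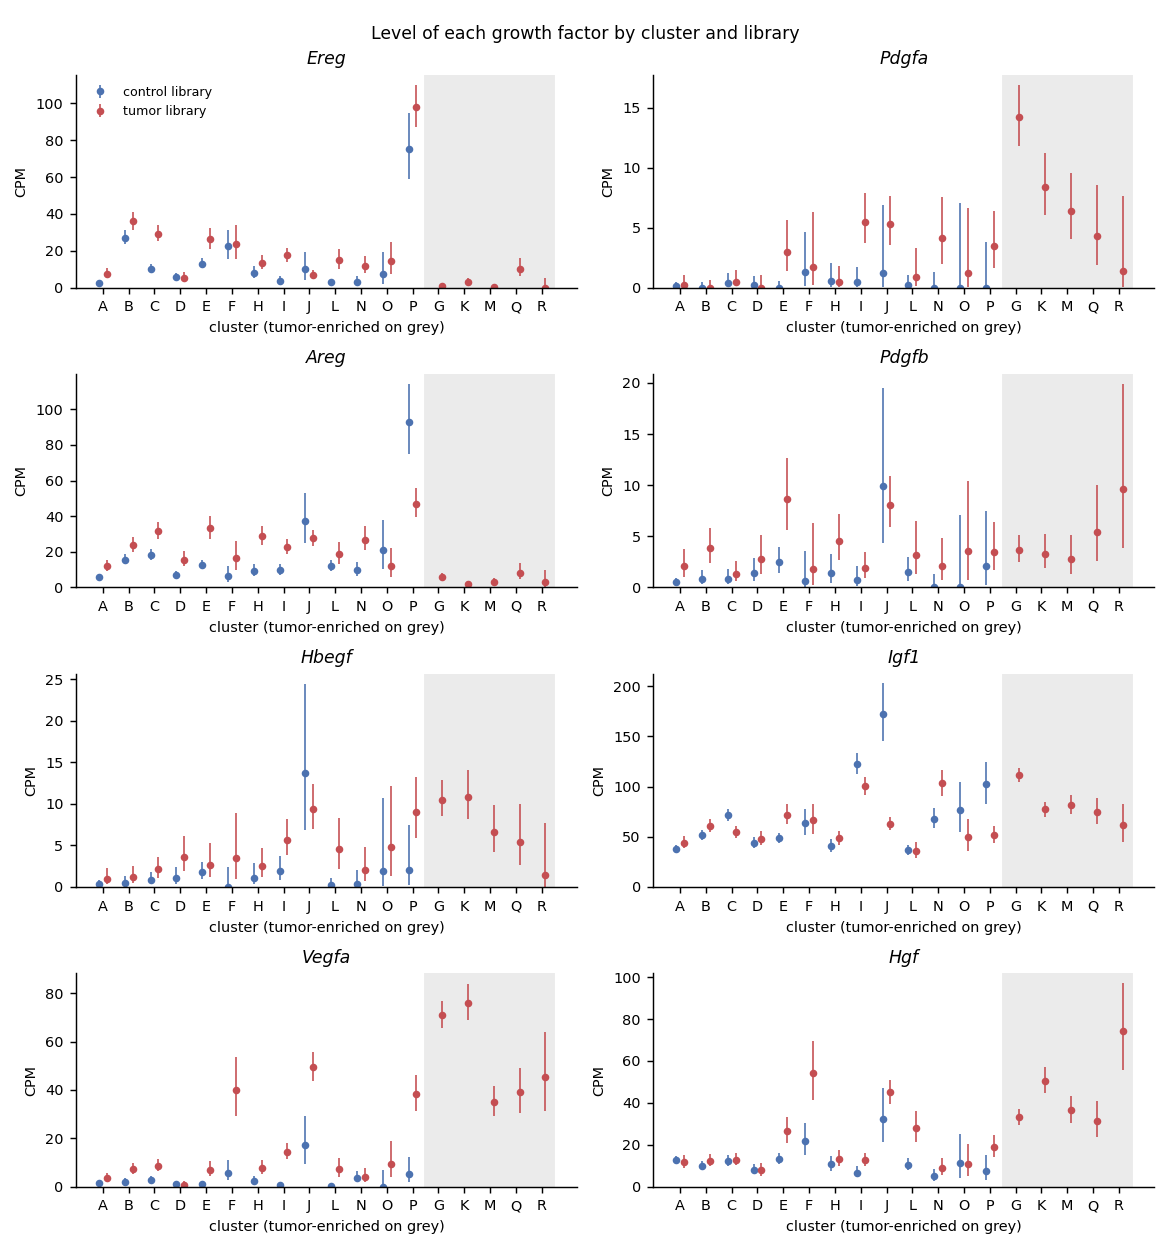
Level of each factor in CPM by cluster for the control (blue) and tumor (red) libraries, with exact 95% Poisson intervals, for clusters with at least 50 cells of a library, tumor-enriched clusters on grey. *Ereg* and *Areg* stand out in cluster P and reach at most 10.3 CPM on grey, whereas *Vegfa* reaches 76.2 CPM in K and *Pdgfa* 14.2 CPM in G.

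*Vegfa* lies at chr17:46016993-46032369 on the minus strand with 13 annotated transcripts, and *Hgf* at chr5:16553495-16620152 on the plus strand with 6. Their levels over the 31 groups of 1 cluster and 1 library with at least 50 cells were the most alike of any 2 of the 8 factors, with a Pearson r of 0.84 on log2(CPM + 10). Groups of 1 library share its depth and background, so this is a description only. For that likeness their promoters are shown with the same motifs in capitals, again the 250 bases before the RefSeq start (GRCm38.p6), for *Vegfa* chr17:46032378-46032627 on the minus strand and for *Hgf* chr5:16553245-16553494 on the plus strand.
Vegfa: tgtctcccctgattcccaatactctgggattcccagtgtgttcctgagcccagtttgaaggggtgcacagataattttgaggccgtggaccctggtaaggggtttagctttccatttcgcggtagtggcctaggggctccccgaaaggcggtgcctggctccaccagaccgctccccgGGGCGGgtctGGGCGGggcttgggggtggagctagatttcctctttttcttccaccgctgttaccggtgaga
Hgf: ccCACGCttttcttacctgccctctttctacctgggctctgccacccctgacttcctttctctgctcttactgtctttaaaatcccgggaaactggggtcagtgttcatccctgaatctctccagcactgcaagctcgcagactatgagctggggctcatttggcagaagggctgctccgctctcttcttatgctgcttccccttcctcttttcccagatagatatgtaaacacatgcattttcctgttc

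The *Vegfa* window held 2 GC boxes, 72 and 62 bases before the start, and the *Hgf* window 1 hypoxia response element core on the opposite strand at 248 bases. The other motifs were not among their letters. The remaining factors lie at chr18:36504927-36515805 (*Hbegf*, minus strand), chr5:138976014-138997370 (*Pdgfa*, minus strand), chr15:79995874-80014977 (*Pdgfb*, minus strand) and chr10:87858265-87937042 (*Igf1*, plus strand).

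Over the same 31 groups, and among 5672 genes with a mean of at least 20 CPM, the genes most like *Vegfa* were *Map4k4* (r = 0.93), *F13a1* (0.93) and *Ecm1* (0.92), and *Itga4* (0.93) and *Tcf4* (0.93) were among those most like *Hgf*. *Ereg* was most like *Tbc1d4* (0.84), *Cxcl3* (0.77) and *Tnf* (0.74), and *Areg* most like *Tbc1d4* (0.75), *Il1a* (0.65) and *Srgn* (0.64). *Ereg* and *Areg* thus had the same gene first. *Hbegf* was most like *S100a6* (0.82), *S100a4* (0.81) and *Socs3* (0.80), and *Pdgfa* most like *Spp1* (0.85), *Timp2* (0.84) and *Ctss* (0.83). *Pdgfb* was most like *Ly86* (0.77), *Cbfa2t3* (0.76) and *Hopx* (0.73), and *Igf1* most like *Fcgr3* (0.76), *Mmp12* (0.73) and *Il11ra1* (0.71). Among the factors themselves, r was 0.77 for *Ereg* with *Areg*, 0.80 for *Vegfa* with *Pdgfa*, 0.75 for *Vegfa* with *Hbegf* and -0.07 for *Ereg* with *Vegfa*.

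For co-expression with *Inhba*, thinned cells with an *Inhba* UMI were set against the rest of their library. In the control library 350 of 5590 cells had one, and 4 of the 6 factors with enough counts were at least 2-fold higher in these cells, beside 2.3% of 11097 genes. *Ereg* was at 18.8 CPM in them (12.2 to 27.7) and 8.09 CPM in the rest (6.88 to 9.44), a log2 ratio of 1.22 (0.55 to 1.83). *Areg* stood at 22.6 CPM against 9.99 CPM, in log2 terms 1.17 (0.57 to 1.73). *Igf1* was at 110 CPM (92.7 to 129) and 50.1 CPM (47.1 to 53.3), and was found in 28.6% of the *Inhba* cells and 15.3% of the rest. Its log2 ratio of 1.13 (0.87 to 1.38) went below 2-fold in 5 of 8 alternatives, down to 0.67 (0.38 to 0.95) after another random thinning. *Vegfa* was the fourth, with a log2 ratio of 1.29 on 7 UMIs (-0.11 to 2.45). *Pdgfb* (4 UMIs in the *Inhba* cells) had a log2 ratio of 0.86 (-1.10 to 2.35) and *Hgf* one of -0.10 (-0.96 to 0.65). None of the 6 was 2-fold lower, beside 7.44% of genes. Barcodes with markers of another cell type, some of which may be AMs, also held *Inhba* UMIs. In control 25.0% of 84 did (16.2 to 35.6), against 6.26% of the whole library. In tumor 22.6% of 155 did, against 20.3%. Cluster S had an *Inhba* UMI in 0 of 12 control cells (up to 26.5%) and in 5.71% of 35 tumor cells (0.70 to 19.2). The 5 fibroblast markers summed to 0.709 CPM in the control library and 31.7 CPM in tumor, so the control cells of S are not read as fibroblasts. How many of these *Inhba* UMIs are free RNA was not tested, so an *Inhba* UMI is not read as proof that a cell makes *Inhba*. *Hbegf*, with 1 UMI in the *Inhba* cells, and *Pdgfa*, with 0, could not be compared. Without the few control cells of tumor-enriched clusters, 4 of 6 were again 2-fold higher, beside 2.39% of genes, and none lower, beside 7.33%, but *Pdgfb* (1.01) took the place of *Vegfa* (0.67), each on 4 UMIs.

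In the tumor library 1410 of 6937 cells had an *Inhba* UMI, and none of the 8 factors was 2-fold higher in them, beside 0.543% of 11229 genes, or 2-fold lower, beside 2.32%. *Vegfa* was at 39.2 CPM in these cells (34.1 to 44.9) and 24.0 CPM in the rest (21.99 to 26.2), a log2 ratio of 0.70 (0.47 to 0.94). *Ereg* was at 24.4 CPM (20.4 to 29.0) and 14.4 CPM (12.8 to 16.1), a log2 ratio of 0.77. *Areg* stood at 23.9 CPM against 14.7 CPM, which is 0.70 in log2. For these 3 the interval of the ratio lay above 0. For *Vegfa* and *Ereg* it did so under all 8 alternatives tried, but for *Areg* it reached below 0 in 4 of 8, with a log2 ratio of 0.21 (-0.12 to 0.54) after another random thinning and 0.14 (-0.22 to 0.48) without barcodes that held markers of another cell type. For *Hbegf* it was 0.49 (-0.13 to 1.08), for *Igf1* 0.11 (-0.06 to 0.28), for *Hgf* 0.00 (-0.28 to 0.27), for *Pdgfa* -0.10 (-0.88 to 0.62) and for *Pdgfb* -0.44 (-1.31 to 0.34). The interval lay above 0 for *Hbegf* and for *Igf1* in 3 of 8 alternatives each. Whether the ratios of *Igf1* differ between the libraries was not tested.

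Not all of this lay within clusters. When each *Inhba* cell was compared with the level of *Inhba*-free cells of its own cluster, the tumor library held 209 *Vegfa* UMIs where 156 would stand at that level, a log2 ratio of 0.42 (0.22 to 0.62), and 128 *Areg* UMIs where 83.7 would stand, 0.61 (0.35 to 0.86). For *Ereg* it was 131 and 101 UMIs, 0.37 (0.11 to 0.62), and for *Hgf* 135 and 144 UMIs, -0.09 (-0.34 to 0.15). In control the ratio within clusters was 0.82 for *Areg* (0.15 to 1.42), 0.54 for *Igf1* (0.28 to 0.79) and 0.54 for *Ereg* (-0.26 to 1.24). These intervals cover the counts of the *Inhba* cells only and rest on the same random thinning. Within the tumor-enriched clusters, *Hbegf* was at 12.1 CPM in *Inhba* cells and 6.21 CPM in the rest, a log2 ratio of 0.97 (0.10 to 1.79), and in the other clusters of the tumor library at 3.25 and 3.66 CPM, -0.17 (-1.21 to 0.74). No factor was 2-fold higher in either set, beside 0.681% and 0.643% of the genes counted, or 2-fold lower, beside 2.25% and 2.68%.

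Cells were also grouped by their number of *Inhba* UMIs. In tumor cells with 0, 1, 2 to 4 and 5 or more *Inhba* UMIs, *Vegfa* was at 24.0, 35.6, 36.8 and 54.7 CPM, where the last group (231 cells, 40.3 to 72.5) lay above the first and the middle groups did not differ. *Ereg* was at 14.4, 23.2, 20.2 and 37.6 CPM in the same groups. *Igf1* in control was at 50.1 CPM with 0 *Inhba* UMIs and 104, 121 and 102 CPM in the groups with more.

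**Figure D4:**
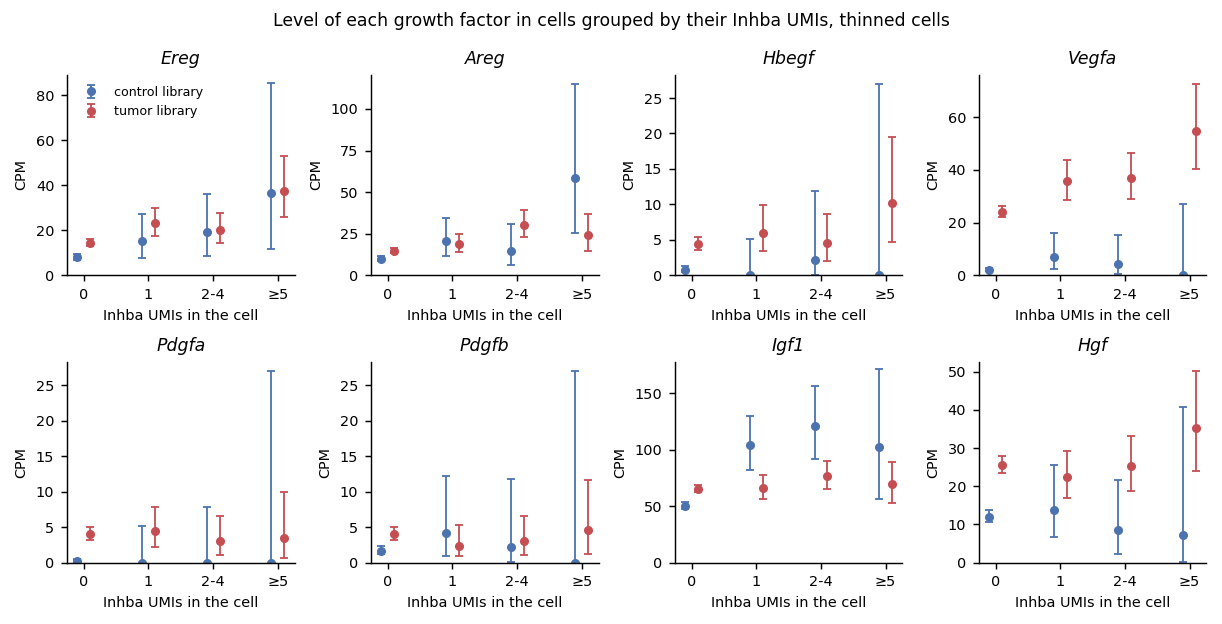
Level of each factor in CPM in cells grouped by their number of *Inhba* UMIs (0, 1, 2 to 4, 5 or more) in the control (blue) and tumor (red) libraries, after thinning, with exact 95% Poisson intervals. *Vegfa* in tumor runs from 24.0 to 54.7 CPM and *Igf1* in control is higher wherever *Inhba* was found, while *Pdgfb* and *Hgf* give no such pattern. The last control group has 36 cells and wide intervals.

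Pairs of factors were also looked for in single cells. In the tumor library *Areg* was found in 45 of the 242 cells with *Ereg*, 18.6% (13.9 to 24.1), and in 3.24% of the cells without it (2.83 to 3.69), and in control in 15 of 144, 10.4%, against 2.83%. The product of the 2 genes' shares, cluster by cluster, gives 14.5 such cells in tumor and 5.77 in control, below the counting intervals of the cells seen (32.8 to 60.2 and 8.40 to 24.7). *Vegfa* was found in 4 of the 242 *Ereg* cells, 1.65% (0.452 to 4.18), against 7.38% of the cells without *Ereg* (6.76 to 8.03), and the product within clusters, 8.98 cells, lies within the counting interval of the 4 seen (1.09 to 10.2). *Vegfa* cells had *Pdgfa* in 3.61% (2.16 to 5.65) and other cells in 1.13%, where the 18 cells seen (10.7 to 28.4) stand beside 12.7 from the product, which lies within that interval. *Hbegf* cells had *Hgf* in 20.4% (13.1 to 29.5) and other cells in 8.49%, 21 cells (13.0 to 32.1) beside 11.4.

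**Figure D5:**
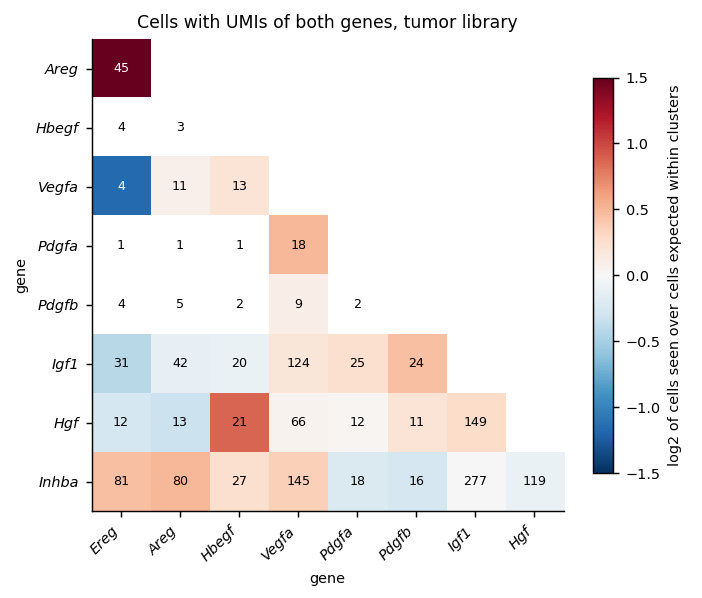
Number of thinned cells of the tumor library with UMIs of both genes of a pair (printed numbers), colored by the log2 of that number over the one that the product of the 2 genes' shares within each cluster gives, blank where that product is under 5 cells. *Ereg* with *Areg* (45 cells) stands highest and *Ereg* with *Vegfa* (4 cells, whose counting interval holds the product) lowest.

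A further 91 genes, here called pathway genes, came from lists of ligands, receptors, proteases, binding proteins and response genes, and 70 had enough counts. Of the 70, 16 were at least 2-fold higher in tumor, beside 6.02% of all genes, and 3 at least 2-fold lower, beside 6.91%. The 16 are not growth factor genes alone. They include 5 of 16 dissociation and immediate early genes, 2 of 12 hypoxia response genes and 2 activin genes, *Fst* and *Fstl3*. *Inhba* is not counted among them. The other EGFR ligands were nearly absent, with 14 UMIs of *Egf* in control and 13 in tumor and 2 or fewer of *Tgfa* and *Btc* in each. *Egfr* and *Erbb4* had 0 UMIs in both libraries, which by a limit of 3 counts allows a level of up to 0.0463 CPM in control and 0.0436 CPM in tumor. The sheddases of the EGFR ligands were present at like levels, *Adam10* at 109 CPM in control and 134 CPM in tumor and *Adam17* at 117 and 111 CPM. Of the iRhoms, partners of ADAM17, *Rhbdf2* was at 46.7 and 51.7 CPM while *Rhbdf1* was lower in tumor, at 2.81 and 1.29 CPM, a log2 ratio of -1.12.

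Of 7 VEGF family genes counted none passed 2-fold in either direction. The VEGF receptor gene *Flt1* was at 166 CPM in control and 110 CPM in tumor and *Nrp2* at 133 and 194 CPM. In the PDGF family *Pdgfc* was at 24.4 and 19.3 CPM, and the receptor gene *Pdgfra* had 4 UMIs in control and 44 in tumor, 68.2% of these in cluster S (*Dcn*, *Igfbp4*, *Col3a1*). In the IGF family 4 of 8 were higher and 1 lower. *Igf1r*, the receptor of IGF-1, was at 2.22 CPM in control and 4.46 CPM in tumor. *Igf2r* was at 1.11 and 16.6 CPM, a difference of 3.90 in log2 (3.56 to 4.27). Of the IGF binding proteins, *Igfbp4* had a log2 ratio of 5.47 and *Igfbp7* of 1.02, but 89.9% and 74.8% of their tumor UMIs came from the 44 tumor cells of the fibroblast-led cluster S, and *Igfbp6* had a log2 ratio of -2.41. That cluster held 0.352% of the tumor library's *Ereg* UMIs and 1.26% of its *Vegfa* UMIs, and at most 5.58% for any of the 8 factors (*Hbegf*).

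*Met*, the receptor of HGF, was at 0.586 CPM in control and 5.74 CPM in tumor, a log2 ratio of 3.29 (2.81 to 3.81), so ligand and receptor were both higher in the tumor library. Of the other 5 genes counted in that list none passed 2-fold, with the HGF activator inhibitor gene *Spint1* at 44.7 and 33.2 CPM. Among other growth factors, *Csf1* was higher in tumor, at 1.56 and 11.4 CPM, with 58.8% of its tumor UMIs in the tumor-enriched clusters, and *Fgf1* lower, at 2.79 and 0.509 CPM. *Fst*, which encodes the activin antagonist follistatin, was at 0.447 and 3.11 CPM.

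Of 12 hypoxia response genes, 2 passed 2-fold, 1 of them with over 100 UMIs, *Ndrg1*, at 1.22 CPM in control and 6.38 CPM in tumor. The median log2 ratio of the 12 was 0.28. Of 16 genes of dissociation and immediate early response, 5 were higher, *Ier3* (1.68), *Nr4a1* (1.15), *Socs3* (2.18), *Hspa1a* (1.23) and *Hspa1b* (1.55) by log2 ratio, with a median of 0.81 over the 16. These genes respond to tissue digestion and moved in the same direction as the factors between the libraries, and their part in the results was not tested.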

How the data were processed

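The deposited tables hold raw UMI counts per gene and barcode, made by the authors with Cell Ranger from 10x Genomics 3′ libraries. The submitters' processing notes name bcl2fastq 2.20, Cell Ranger 4.0.0 and mm10, while the methods name another release of Cell Ranger. Symbols were matched for 32158 of 32285 identifiers. Whether counting used strand is not given in the sources used here.

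From these counts CPM, ratios and shares were computed as described above, for genes with at least 20 UMIs over the cells compared. Scrublet, run in scanpy 1.11.5, called 0 doublets in each library by its automatic threshold, which was taken as a failure, so doublets stayed in and the highest scores, 274 control and 410 tumor barcodes, were removed as an alternative. For clustering, 2000 variable genes, 50 components, a mutual nearest neighbor correction between libraries (20 neighbors, written after Scanorama), a Jaccard graph of 15 neighbors and the Leiden method (leidenalg 0.10.2, resolution 1) were used. A cluster of 18 cells was left out. Clusters were rebuilt and do not map onto those of the study. The members, lists and motifs were chosen with earlier results of these data known. Named genes are the factors and *Inhba*, pathway genes past 2-fold with at least 100 UMIs, other members of those lists as examples chosen after their values were seen, the 3 genes most like each factor (1 of these is not reported here) and the 3 leading genes of clusters. Alternatives changed the filters, scaling, thinning, doublets and clustering.

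Ratios, thinning, clusters and co-expression were tested on simulated data. For the simulated ratio of tumor over control, 95.5% of the intervals of 13440 genes held the true ratio. These summed counts were drawn from the counting model that the intervals assume, so the share checks the computation only. Molecules concentrated in few cells, as those of *Ereg* and *Areg* were, had no part in this simulated ratio. The scripts ran under Python 3.11.15 (matplotlib 3.10.9, igraph 0.11.9, scikit-learn 1.9.0, pandas 2.3.3, scipy 1.17.1, numpy 2.4.6).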

Additional observations from a re-analysis of the deposited data

Results flagged for a closer look

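Within cluster P, where *Areg* was highest, its log2 ratio of tumor over control was -0.98, whereas in cluster H it was 1.64, the opposite direction. *Igf1* also pointed both ways, with log2 ratios of -0.39 in cluster C, -0.29 in I, -1.46 in J and -0.99 in P but 0.60 in N. These differences between clusters were not tested, since each rests on 1 library per condition.

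In the 2300 control and 1509 tumor barcodes that the filter on genes and mitochondrial UMIs left out, all 8 factors were higher in tumor, with the interval of the ratio above 0 for 3. Of the 9303 genes with at least 20 UMIs in these barcodes, 5 of the factors among them, 49.8% were higher in tumor and 16.9% had an interval above 0. *Pdgfa*, *Hbegf* and *Pdgfb* were below that minimum, so of the 5 factors counted there only *Vegfa* and *Hgf* had an interval above 0. Tumor exceeded control by a log2 ratio of 4.31 for *Vegfa* (3.38 to 5.403), on 10 control and 128 tumor UMIs, 3.09 for *Pdgfa*, on 2 and 11 UMIs, and 1.57 for *Hgf* (1.12 to 2.03).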

How the results depend on the processing

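The count of 5 factors at least 2-fold higher in tumor and 0 lower was the same under 10 alternatives, including 2 chosen after seeing the data (without the low-depth clusters F and O, and without cluster S), and the median log2 ratio ranged from 1.33 to 1.42. The log2 ratio stayed between 3.58 and 3.88 for *Vegfa*, 3.68 and 4.48 for *Pdgfa* and 0.25 and 0.39 for *Igf1*. With no correction between libraries, the tumor-enriched clusters took 57.5% of the tumor library and 0 factors were 2-fold lower in them, in place of 2, with log2 ratios of -0.13 for *Ereg* and -0.07 for *Areg*. Under it, in an alternative chosen after seeing the data, 3 factors were 2-fold higher in tumor in the other clusters alone, in place of 6, with *Igf1* at a log2 ratio of -0.016 and *Hgf* at -0.043, both reversed, and *Pdgfa* at 0.16 in place of 3.27. At resolutions of 0.5 and 1.5 these counts were 6 and 5, and in the tumor-enriched clusters *Ereg* was at -3.43 and -3.62 and *Areg* at -1.48 and -1.84. With no filter on low values, 7 pathway genes were 2-fold lower in place of 3. In control *Inhba* cells 3 or 4 factors were 2-fold higher, but which ones changed. Over 8 alternatives the log2 ratio there ranged from 0.67 to 1.17 for *Igf1* (below 2-fold in 5), 0.50 to 2.28 for *Vegfa* (in 1), 0.98 to 1.95 for *Ereg* (in 1) and 1.06 to 1.65 for *Areg*, and *Hbegf* was above 1 in 5 of the 7 that gave it a value, among them another thinning seed (1.24) and no thinning (1.15). In tumor *Inhba* cells *Areg* ranged from 0.14 to 0.91, with the interval reaching below 0 in 4 of 8 (another seed, at most 5% mitochondrial UMIs, and without the highest Scrublet scores or barcodes with markers of another type). *Hbegf* and *Igf1* there gained an interval above 0 in 3 of 8 each and *Hgf* in 1, and *Pdgfb* one below 0 without thinning (-1.05 to -0.19). The tumor-enriched over other log2 ratios moved in 12 of 24 cases, from 2.04 to 4.76 for *Pdgfa*, 2.07 to 3.19 for *Vegfa* and 1.23 to 2.10 for *Hbegf*. Differences in shares of cells moved in 11 of 16, and without thinning that of *Ereg* was 0.188 percentage points in place of 0.913 and that of *Igf1* 0.283 in place of 2.85. The causes were not tested. No paired analysis was possible because each condition has 1 library. Depth limits *Pdgfa* and *Hbegf* in control, with 18 and 68 UMIs.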
